A study of Mus musculus with 8 samples.

Results

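The nuclear genes for subunits of the oxidative phosphorylation (OXPHOS) complexes were examined in pre-B cell RNA-seq libraries and in LSK cell ATAC-seq libraries of Dido1∆E16 and WT mice. Members were taken by symbol: the Nduf genes of complex I other than the Ndufaf assembly factors, Sdha to Sdhd of complex II, and the Uqcr, Cox4 to Cox8 and Atp5 genes of complexes III, IV and V. The rule found 84 of the 25993 named genes, 38 in complex I, 4 in complex II, 8 in complex III, 17 in complex IV and 17 in complex V. Of these, 81 reached a mean of at least 1 TPM (a level corrected for transcript length and scaled to the same total in each library) over the 4 pre-B libraries and entered the test, as did 11841 genes in all. The other 3, Ndufa4l2, Cox7b2 and Cox8b, were listed at 0 TPM in every library. The symbols Atp5s and Atp5sl fit the rule although their products are not structural subunits of the ATP synthase.

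Dido1 encodes 3 main proteins by alternative splicing, and the terminal exon 16 is used only by the longest, Dido3. Animals of the Dido1∆E16 group, on a C57BL/6 background, held 1 floxed and 1 deleted Dido1 allele (flE16/∆E16), and their littermates called WT held 1 floxed and 1 intact allele (flE16/+). Both groups also carried the R26R-EYFP reporter and iCre Vav1. Cre under the Vav1 promoter is active in blood-forming cells. The paper's methods give mice of 6 to 10 weeks, matched for age and sex in each experiment. A figure legend of the paper describes the ATAC-seq and RNA-seq samples as male and of different ages. Each genotype had 2 libraries of bone marrow pre-B cells (sorted by surface markers that include B220+ and IgM-, RNA pooled from several mice per library) and 2 of LSK cells (Lin- Sca1+ cKit+ progenitors).

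The 16-exon Dido1 transcript, which holds exon 16, was at 35.7 and 35.0 TPM in WT pre-B cells and at 14.9 and 19.4 TPM in Dido1∆E16 pre-B cells. A 15-exon transcript that ends before it was at 8.44 and 1.01 TPM against 65.2 and 67.4 TPM. These levels are estimates for whole transcripts that share most of their exons, so they are not a direct measure of exon 16. The paper reports near-complete loss of the deleted exon from LSK cell DNA and reduced Dido3 RNA in prepro-B cells. It also lists a Dido1 transcript among those lower in the pre-B cells of the deleted group. The 9 pre-B markers, which include Pax5, Ebf1 and Rag1, summed to between 15941 and 18376 TPM in each library. The 7 markers of pro-B and large pre-B cells summed to 971 and 423 TPM in WT and to 2409 and 1636 TPM in Dido1∆E16. At an unadjusted limma p under 0.05, 4 were higher, Vpreb1, Igll1, Dntt and Kit, as were 1024 of all 11841 tested genes. Vpreb1 alone was at 108 and 40.9 TPM in WT and at 1222 and 738 TPM in Dido1∆E16. Il7r, Mki67 and Ccnb1 did not reach that p, with log2 differences of 0.20, 0.52 and 0.12. Mki67 and Ccnb1, markers of dividing cells, were highest in the first WT library. The 8 neutrophil and monocyte markers, such as S100a8 and Lyz2, summed to 244 and 2211 TPM in WT and 1069 and 9647 TPM in Dido1∆E16. Erythroid markers summed to 56.6, 184, 129 and 1622 TPM in the same order with Car1 at 0, whereas T and NK markers stayed between 4.83 and 25.99 TPM, with Cd3e, Cd4 and Cd8a at 0 throughout. Mature B cell markers summed to 549 and 848 TPM in WT and 527 and 650 TPM in Dido1∆E16, and plasma cell markers to 244 and 280 against 224 and 225 TPM. At an unadjusted limma p under 0.05, Fcer2a of the mature B list and Sdc1 of the plasma list were lower. So were 360 of all 11841 tested genes. Klf1 of the erythroid list was higher at that p. Sdc1 was at 121 and 102 TPM in WT and at 64.4 and 57.0 TPM in Dido1∆E16. The part of these cell mixtures in the results on OXPHOS genes was not tested.

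Complexes I to IV pass electrons from NADH and succinate to oxygen and pump protons across the inner mitochondrial membrane, except for complex II, which pumps none. Complex V, the ATP synthase, uses the proton gradient to make ATP. Most of the subunits are encoded in the nucleus, complex II entirely so, and their promoters are known for short upstream or start-proximal sites for the factors NRF1, GABP of the ETS family, YY1 and SP1. Dividing B cell precursors are known to rely on both glycolysis and respiration.

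RefSeq promoter windows (GRCm38.p6, 250 bases before to 50 after the transcription start) were matched by symbol for 67 of the 84 genes. The sequence GCGCATGCG, a core of the NRF1 site, was present on either strand in 8 of the 67 windows (11.9%), against 1.80% of all 27025 windows and 4.04% of the 8956 windows of genes tested in pre-B cells. AAGATGGCG, the YY1 form, was present in 6 (8.96%), against 1.51% and 3.66%. CCGGAAGT, the ETS form bound by GABP, was present in 5 (7.46%), against 4.03% and 9.40%, and the SP1 form GGGGCGGGG in 10 (14.9%), against 11.7% and 21.996%. The shares of the NRF1 and YY1 letters were thus above those of expressed genes in general, and those of the ETS and SP1 letters were not. Any of the 4 forms was found in 26 windows (38.8%), close to the 35.0% of expressed genes. The median G+C content of the members' windows was 57.0%, against 61.0% for expressed genes and 52.7% for all windows. A match gives only the letters present and does not show binding.

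The 6 YY1 matches all lay after the start and read in the direction of the gene, beginning 22 to 35 bases downstream. Among all 407 windows with this sequence, 116 (28.5%) had such a match between 20 and 40 bases after the start. Stretches from 10 bases before to 50 after the start are shown for these 6 genes because the position is shared, with the YY1 letters in capitals.
Ndufc1, chr3:51408906-51408965, minus strand: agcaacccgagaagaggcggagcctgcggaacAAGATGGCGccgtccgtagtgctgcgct
Atp5j2, chr5:145191492-145191551, minus strand: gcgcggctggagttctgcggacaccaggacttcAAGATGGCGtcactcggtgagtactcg
Ndufs7, chr10:80249439-80249498, plus strand: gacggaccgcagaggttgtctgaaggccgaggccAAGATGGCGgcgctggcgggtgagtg
Ndufa9, chr6:126849095-126849154, minus strand: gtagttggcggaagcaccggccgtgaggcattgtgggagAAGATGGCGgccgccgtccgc
Ndufs6, chr13:73328433-73328492, minus strand: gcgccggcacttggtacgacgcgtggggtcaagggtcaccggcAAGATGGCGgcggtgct
Ndufs4, chr13:114388045-114388104, minus strand: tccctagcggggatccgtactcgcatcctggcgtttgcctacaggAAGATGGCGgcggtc
The match began at base 22 in Ndufc1, 23 in Atp5j2, 24 in Ndufs7, 29 in Ndufa9, 33 in Ndufs6 and 35 in Ndufs4, counted from the start as 0. It contains the letters ATG, and 5 of the 6 genes belong to complex I, which supplied 33 of the 67 windows.

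The whole windows are shown for the 3 genes that held 2 of the 4 forms, Uqcr11, Atp5g2 and Ndufa8, for Cox8a, the single gene with 2 ETS matches, for Cox6a1, whose transcript level is described among the differences, and for Cox8b, the muscle isoform paired with Cox8a. Capitals mark every match to the 4 forms.
Uqcr11, chr10:80406772-80407071, minus strand: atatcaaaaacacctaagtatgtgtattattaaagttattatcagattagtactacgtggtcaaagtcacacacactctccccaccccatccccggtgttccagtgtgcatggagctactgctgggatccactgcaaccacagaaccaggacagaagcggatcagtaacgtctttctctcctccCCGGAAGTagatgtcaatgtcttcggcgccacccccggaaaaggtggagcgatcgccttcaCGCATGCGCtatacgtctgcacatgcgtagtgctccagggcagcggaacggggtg
Atp5g2, chr15:102670998-102671297, minus strand: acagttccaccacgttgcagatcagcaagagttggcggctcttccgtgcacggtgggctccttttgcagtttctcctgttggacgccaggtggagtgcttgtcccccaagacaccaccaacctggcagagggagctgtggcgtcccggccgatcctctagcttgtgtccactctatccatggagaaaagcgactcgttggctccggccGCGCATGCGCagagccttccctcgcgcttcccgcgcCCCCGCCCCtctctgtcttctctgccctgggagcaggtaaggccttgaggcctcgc
Ndufa8, chr2:36049289-36049588, minus strand: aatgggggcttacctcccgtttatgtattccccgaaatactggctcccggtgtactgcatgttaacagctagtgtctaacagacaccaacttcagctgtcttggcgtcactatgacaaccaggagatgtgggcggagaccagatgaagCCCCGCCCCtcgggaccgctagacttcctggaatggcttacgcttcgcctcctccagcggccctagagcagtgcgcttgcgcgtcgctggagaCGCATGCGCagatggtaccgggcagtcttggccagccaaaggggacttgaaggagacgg
Cox6a1, chr5:115348909-115349208, minus strand: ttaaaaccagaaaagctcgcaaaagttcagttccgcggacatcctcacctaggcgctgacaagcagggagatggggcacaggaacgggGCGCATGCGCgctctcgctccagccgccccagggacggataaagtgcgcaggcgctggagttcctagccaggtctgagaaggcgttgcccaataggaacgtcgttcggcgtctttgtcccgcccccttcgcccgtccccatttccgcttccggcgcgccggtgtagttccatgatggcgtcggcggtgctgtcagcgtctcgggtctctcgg
Cox8a, chr19:7217567-7217866, minus strand: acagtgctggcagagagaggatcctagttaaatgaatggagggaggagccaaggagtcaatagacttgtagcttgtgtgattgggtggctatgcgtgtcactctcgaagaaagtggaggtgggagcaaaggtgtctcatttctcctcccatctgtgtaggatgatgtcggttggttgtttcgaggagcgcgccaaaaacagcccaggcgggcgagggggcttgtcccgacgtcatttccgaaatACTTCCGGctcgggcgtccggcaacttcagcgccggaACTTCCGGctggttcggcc
Cox8b, chr7:140900397-140900696, minus strand: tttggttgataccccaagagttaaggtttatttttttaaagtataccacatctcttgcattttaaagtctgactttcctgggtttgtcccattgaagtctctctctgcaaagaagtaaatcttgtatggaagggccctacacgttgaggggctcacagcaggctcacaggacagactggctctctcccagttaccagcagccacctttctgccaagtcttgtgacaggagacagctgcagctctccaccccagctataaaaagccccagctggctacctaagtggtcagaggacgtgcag
In Uqcr11 the ETS letters preceded the NRF1 letters, and in Atp5g2 the NRF1 letters, a palindrome that matched both strands, preceded an SP1 match that ran across the start. Cox6a1 held the same NRF1 palindrome further upstream. Cox8a held its ETS matches at 6 bases before and 31 after the start, 19 CpG dinucleotides and a G+C content of 56.0%. Cox8b held none of the 4 forms, 2 CpG dinucleotides and a G+C content of 48.3%.

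The starts of OXPHOS genes often lay next to that of another gene on the opposite strand. Such a start was annotated within 1 kb for 26 of the 81 tested members (32.1%), against 21.1% of all tested genes and 14.1% of all named genes. Atp5j, which encodes the F6 subunit of the ATP synthase, lay 501 bases from the start of Gabpa, the DNA-binding subunit of GABP. Cox4i1 lay 83 bases from Emc8, Sdhd 52 bases from Timm8b, Ndufs3 19 bases from Kbtbd4 and Ndufs1 9 bases from Eef1b2. These neighbours bear on the accessibility data, in which each peak carries 1 gene name.

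The OXPHOS genes were among the more abundant transcripts of pre-B cells. Their median level was 154 TPM, against 29.7 TPM for all tested genes, and 48 of 84 (57.1%) had a mean of at least 100 TPM, as did 18.3% of tested genes. A further 20 lay between 30 and 100 TPM, 13 between 1 and 30 TPM, and 3 at 0. The 10 most abundant members made up 39.3% of the summed level. Summed over all members, the level was 16050.5 and 16262 TPM in WT and 16507 and 15127 TPM in Dido1∆E16, or between 1.51% and 1.65% of all TPM in each library. The genotypes overlapped in this sum.

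**Figure D1:**
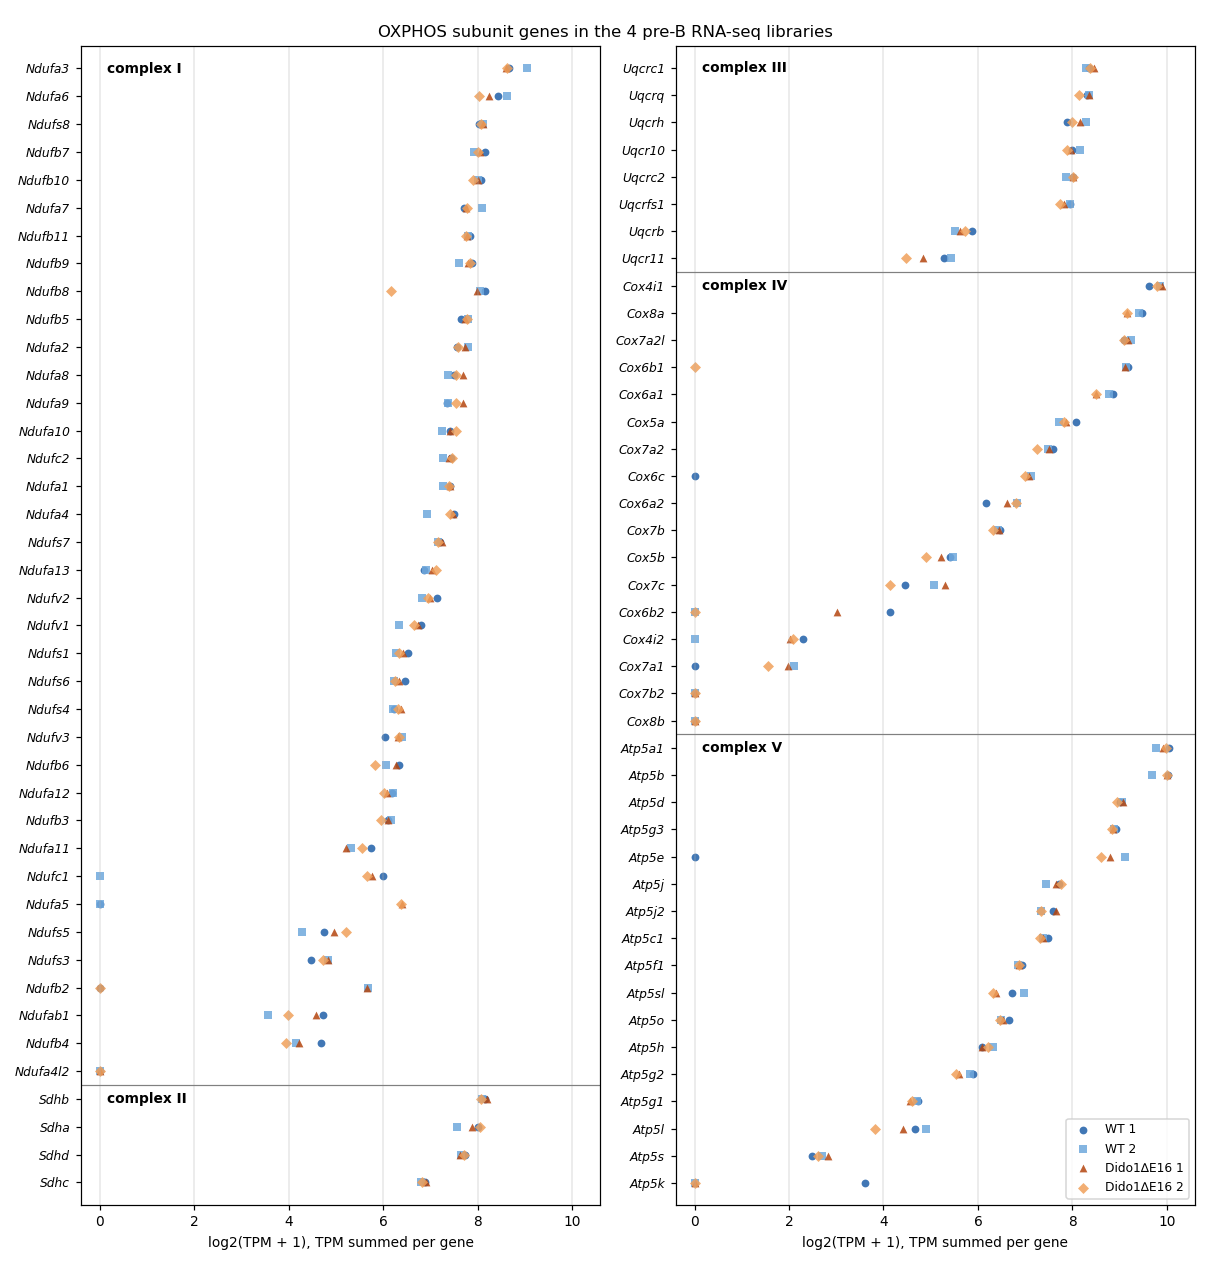
Level of the OXPHOS genes, 1 of them not shown, in the 4 pre-B libraries, as log2(TPM + 1) on the horizontal axis, ordered by mean TPM within each complex; blue symbols are WT and orange symbols Dido1∆E16 libraries, and symbols at 0 lie over each other. Most genes had their 4 values close together, and single symbols at 0 mark genes such as Cox6b1, Cox6c and Atp5e that were listed at 0 in 1 library.

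Before the comparison, 6 members stood out because they were listed at 0 in at least 1 library and above 30 TPM in another. Atp5e, the epsilon subunit of the F1 part, was at 0 and 552 TPM in WT and at 442 and 387 TPM in Dido1∆E16. Cox6b1, a subunit of complex IV at the face between its monomers, was at 576 and 563 TPM in WT and at 555 and 0 TPM in Dido1∆E16. Cox6c was at 0 and 139 TPM in WT and at 134 and 127 TPM in Dido1∆E16. Each was thus at 0 in a single library and high in the other 3.

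Of the complex I members, Ndufc1 was at 62.5 and 0 TPM in WT and at 53.2 and 49.8 TPM in Dido1∆E16. Ndufb2 was at 0 and 50.4 TPM in WT and at 49.5 and 0 TPM in Dido1∆E16. Ndufa5, a subunit of the peripheral arm, was at 0 in both WT libraries and at 83.0 and 81.7 TPM in Dido1∆E16. Only in Ndufa5 did the pattern of zeros follow genotype. In each of the 6 genes the most abundant transcript was under 600 nt. Whether a value of 0 is a failed estimate was not tested, and no fold is given for these genes. They stayed in the test and in the counts over the 81 tested members, with a value of 0 entered as measured.

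Such zeros were more frequent among short transcripts in general. Of 26 tested members under 600 nt that reached 30 TPM in a library, 6 were at 0 in another (23.1%), as were 21 of 217 tested genes of that length (9.68%). None of the 25 members from 600 nt to under 1200 nt and none of the 20 longer members that reached 30 TPM was at 0 in any library. For all tested genes these counts were 25 of 688 (3.63%) and 61 of 5672 (1.08%). Of the lower members, Atp5k was at 11.3 TPM in the first WT library and at 0 in the other 3, and Cox6b2, Cox4i2 and Cox7a1 were at 0 in 1 or 2 libraries and never above 16.7 TPM.

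The comparison of Dido1∆E16 with WT asked which genes differ in pre-B cells that lack the Dido3 carboxyl terminus. Among the OXPHOS genes, most levels differed little between the genotypes, and the 4 genes lower at an unadjusted p under 0.05 were Uqcr11 of complex III, Cox6a1 of complex IV, Ndufa6 of complex I and Atp5sl. One of 81 members passed the call (adjusted limma p under 0.05 and a log2 difference of at least 0.6), against 0.0507% of all tested genes, and this was Ndufa5, with an adjusted limma p of 0.0342 that rests on the zeros in WT. At an unadjusted limma p under 0.05, 5 of 81 members differed (6.17%), against 11.7% of all tested genes. Of these, 1 was higher and 4 were lower in Dido1∆E16, and 3.04% of all tested genes were lower at that p. None of the 4 decreases passed the correction. The count of members lower at that p rested on single libraries and settings: it was 0 without the second Dido1∆E16 library, 1 without the trend in limma and 7 with each library centred on its median, and the count of members higher was 7 without the first and 5 without the second WT library. With 2 libraries a genotype, the p-values measure only the spread between these pools of mice. In pooled bulk RNA, fewer cells of a type and less RNA per cell cannot be told apart.

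Counted over the 81 tested members, 37 log2 differences were above and 44 below 0, with a median of -0.01, against a median of 0.07 over all tested genes. With each library centred on its median, 24 were above and 57 below 0, with a median of -0.10 against -0.01 over all tested genes. Without the members at 0 in any library, 31 were above and 40 below 0. Over the 71 members above 0 in all 4 libraries, the differences ran from -1.03 to 0.57 with a median of -0.02, and 68 of them (95.8%) lay within 0.6 of 0, as did 86.7% of the 10417 tested genes above 0 in all 4 libraries and 94.8% of the 2153 of these with a mean of at least 100 TPM. Both Dido1∆E16 libraries lay below both WT libraries for 20 members (24.7%), against 15.6% of all tested genes and 20.8% of those at 100 TPM or more. Both lay above for 9 members (11.1%), against 27.2% and 19.5%.

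The members also varied less between libraries of 1 genotype than genes in general. Over members above 0 in all libraries, the 2 WT libraries differed by a median of 0.16 on the log2 scale and the 2 Dido1∆E16 libraries by 0.09. These gaps were 0.29 and 0.17 over all tested genes of that kind, and 0.24 and 0.12 over those with a mean of at least 100 TPM. The median absolute difference between genotypes was 0.11, below the gap between the WT libraries and above that between the Dido1∆E16 libraries. The same order held for all tested genes of that kind (0.21) and for those with a mean of at least 100 TPM (0.16). The difference between genotypes is taken between means of 2 libraries, which vary less than single libraries. Its size beside these gaps therefore does not show whether genotype had an effect.

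**Figure D2:**
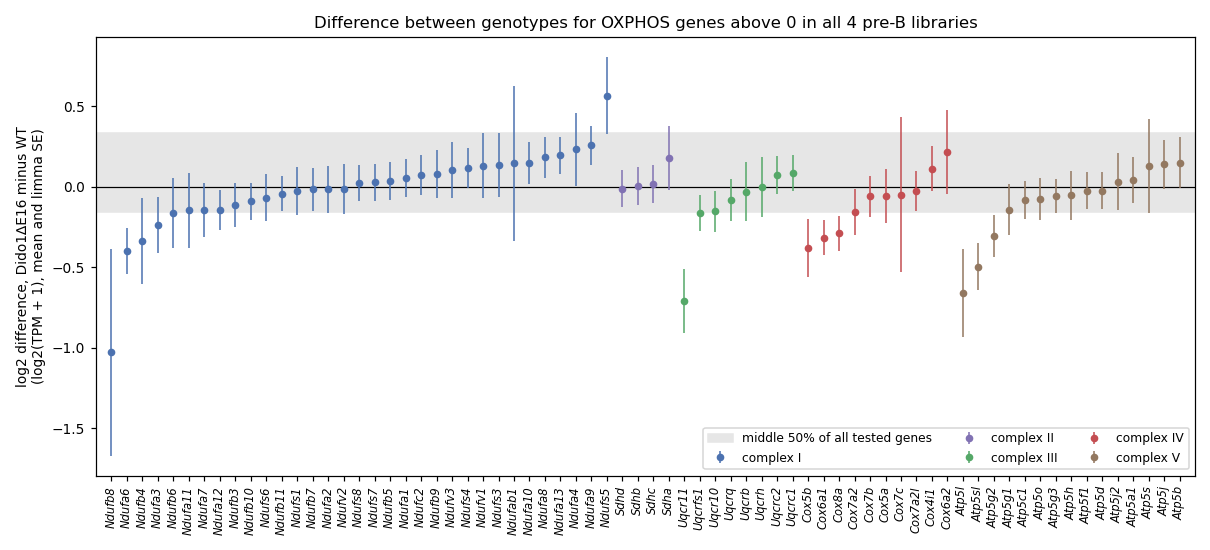
Difference between genotypes, Dido1∆E16 minus WT on the log2(TPM + 1) scale, for the OXPHOS genes above 0 in all 4 pre-B libraries, 1 of them not shown; points are means of 2 against 2 libraries, bars are limma standard errors, and the grey band holds the middle 50% of all tested genes. Most points lie inside the band, and Ndufb8, Uqcr11, Atp5l and Atp5sl lie lowest.

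Complex I takes electrons from NADH through a chain of iron-sulfur clusters. Its summed level was 5493 and 5413 TPM in WT and 5596 and 5179 TPM in Dido1∆E16. The most abundant member was Ndufa3, an accessory membrane-arm subunit, at 403 and 528 TPM in WT and at 389 and 393 TPM in Dido1∆E16 (log2 difference -0.24 ± 0.17 SE). Nuclear core subunits of the peripheral arm differed little between the genotypes: Ndufs8 was at 261 and 276 TPM in WT and at 276 and 270 TPM in Dido1∆E16, and the log2 differences of Ndufs1, Ndufs3, Ndufs7, Ndufs8, Ndufv1 and Ndufv2 ran from -0.03 to 0.14. Ndufs3 was the least abundant of these, at 21.2 to 27.5 TPM.

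Ndufa6, an accessory subunit of the LYR family, was at 346 and 394 TPM in WT and at 301 and 261 TPM in Dido1∆E16, a log2 difference of -0.40 (SE 0.14, limma adjusted p = 0.419). The genotypes did not overlap in this gene. The lowest difference of the complex belonged to Ndufb8, which was at 283 and 263 TPM in WT and at 252 and 70.3 TPM in Dido1∆E16. Its log2 difference of -1.03 (SE 0.64) came mainly from the second Dido1∆E16 library.

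Among members above 0 in every library, the highest difference was that of Ndufs5, at 26.03 and 18.5 TPM in WT and 30.2 and 35.95 TPM in Dido1∆E16 (log2 difference 0.57, SE 0.24, limma adjusted p = 0.487). The next highest was Ndufa9, a peripheral-arm subunit, at 0.26 (SE 0.12). Ndufa4, whose product is found with complex IV in spite of its name, was at 181 and 121 TPM in WT and 178 and 169 TPM in Dido1∆E16, while its hypoxia-linked relative Ndufa4l2 was at 0 in all 4.

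Complex II links the citric acid cycle to the respiratory chain through succinate. Its summed level was 867.7 and 771 TPM in WT and 840 and 856 TPM in Dido1∆E16. Sdhb, the iron-sulfur subunit, was at 284 and 272 TPM in WT and at 292 and 267 TPM in Dido1∆E16. Sdha, the flavoprotein, was at 257 and 189 TPM in WT and 233 and 266 TPM in Dido1∆E16. The membrane anchors were lower, Sdhd at 197 to 211 TPM and Sdhc at 111 to 118 TPM. The 4 log2 differences ran from -0.01 to 0.18, and the genotypes overlapped in every gene.

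Complex III passes electrons from ubiquinol to cytochrome c. The core protein Uqcrc1 led it, at 326 and 313 TPM in WT and at 350 and 329 TPM in Dido1∆E16, followed by Uqcrq at 282 to 327 TPM and Uqcrh, the hinge protein, at 234 to 310 TPM. Uqcrfs1, the Rieske iron-sulfur protein, was at 246 and 246 TPM in WT and 227 and 214 TPM in Dido1∆E16 (log2 difference -0.16, SE 0.11).

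Uqcr11, the smallest subunit of complex III, had the largest decrease relative to its error among the members. It was at 38.1 and 42.1 TPM in WT and at 27.5 and 21.2 TPM in Dido1∆E16, a log2 difference of -0.71 (SE 0.20, limma adjusted p = 0.334). The genotypes did not overlap. Cyc1, the haem-bearing cytochrome c1 of the same complex, lies outside the symbol rule. It was at 194 and 249 TPM in WT and at 107 and 105 TPM in Dido1∆E16, a log2 difference of -1.04 (SE 0.17, limma adjusted p = 0.2102). The 2 lowest complex III values were thus a small accessory subunit and a catalytic one, and the other 7 members ran from -0.16 to 0.09.

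Complex IV reduces oxygen to water, and several of its nuclear subunits exist as tissue isoforms. Cox4i1, the common isoform of subunit 4, was at 790 and 919 TPM in WT and at 957 and 889 TPM in Dido1∆E16, and the lung-enriched Cox4i2 never exceeded 3.90 TPM. Cox8a was at 707 and 683 TPM in WT and at 572 and 568 TPM in Dido1∆E16 (log2 difference -0.29, SE 0.11, limma adjusted p = 0.443), with its muscle isoform Cox8b at 0. Cox7a2l, a factor of supercomplex assembly, was at 543 to 603 TPM, Cox7a2 at 152 to 192 TPM and the muscle isoform Cox7a1 at 0 to 3.30 TPM. In each of these pairs the common isoform was the abundant one.

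For subunit 6a, the common isoform Cox6a1 was at 462 and 438 TPM in WT and at 361 and 362 TPM in Dido1∆E16, a log2 difference of -0.31 (SE 0.11, limma adjusted p = 0.402). The heart and muscle isoform Cox6a2 was also listed at 71.1 and 112 TPM in WT and at 96.9 and 112 TPM in Dido1∆E16. The genotypes did not overlap in Cox6a1 and overlapped in Cox6a2. Cox5b, a zinc-binding subunit, was at 41.4 and 43.5 TPM in WT and 36.3 and 28.8 TPM in Dido1∆E16 (log2 difference -0.38, SE 0.18). Cox6b1, in which 1 library was at 0, took the summed level of complex IV to 3108 TPM in the second Dido1∆E16 library, from 3844 TPM in the first and 3781 and 4009 TPM in WT. Over the 10 members above 0 in all libraries, the sums were 3185 and 3303 TPM in WT and 3142 and 2976 TPM in Dido1∆E16.

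Complex V held the most abundant members of all. Atp5a1 and Atp5b, the alpha and beta subunits that form the catalytic F1 head, were at 875 to 1051 TPM and at 819 to 1035 TPM, and both were lowest in the second WT library. Atp5d, the delta subunit, was at 490 to 535 TPM. The c-ring, which turns as protons pass, is encoded by 3 genes whose mature proteins are the same. Atp5g3 supplied most of its transcripts, at 486 and 472 TPM in WT and 465 and 457 TPM in Dido1∆E16, ahead of Atp5g2 at 58.9 and 56.2 against 47.4 and 45.5 TPM and Atp5g1 at 25.7 and 25.1 against 22.5 and 23.3 TPM. In all 3 the Dido1∆E16 values lay below the WT values without overlap, as in 15.6% of all tested genes and 20.8% of those at 100 TPM or more. The log2 differences were -0.06, -0.30 and -0.14 in the same order, and none reached an unadjusted limma p under 0.05.

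Atp5l, the g subunit of the membrane part, was at 24.3 and 28.7 TPM in WT and 20.2 and 13.2 TPM in Dido1∆E16 (log2 difference -0.66, SE 0.27, limma adjusted p = 0.4798). Atp5sl was at 105 and 124 TPM in WT and at 82.7 and 78.9 TPM in Dido1∆E16, a log2 difference of -0.49 (SE 0.15, limma adjusted p = 0.348). Both lay lower in Dido1∆E16 without overlap. At the upper end, Atp5b had a log2 difference of 0.15 (SE 0.16), the highest of the complex among members above 0 in all libraries. The summed level of complex V was 4182 and 4266 TPM in WT and 4454 and 4342 TPM in Dido1∆E16, in which the zero of Atp5e in the first WT library enters, and over the 15 members above 0 in all libraries it was 4171 and 3714 against 4012 and 3955 TPM.

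Differences below 0 made up a larger share of short transcripts than of long ones. Of 22 members under 600 nt and above 0 in all libraries, 17 (77.3%) had a log2 difference below 0, with a median of -0.11. The share was 53.6% of 28 members from 600 nt to under 1200 nt and 38.1% of 21 longer members, with medians of -0.02 and 0.07. Genes in general followed the same order, at 61.2%, 56.5% and 40.9%, with medians of -0.10, -0.04 and 0.07. The medians of the OXPHOS genes in each class were therefore close to those of all genes of that length. The part of transcript length in these differences was not tested.

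**Figure D3:**
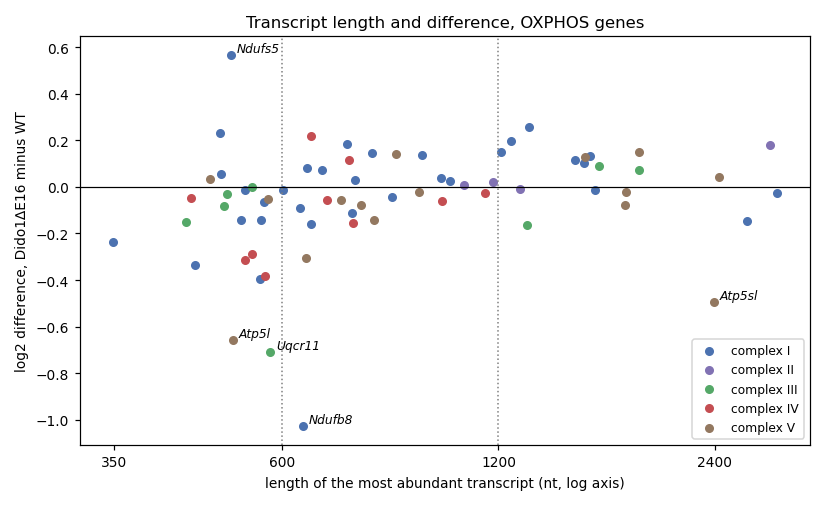
Length of the most abundant transcript (nt, log axis) against the difference between genotypes on the log2(TPM + 1) scale for the OXPHOS genes above 0 in all 4 pre-B libraries, 1 of them not shown, coloured by complex; dotted lines mark 600 and 1200 nt. Points left of 600 nt lie mostly below 0, with Ndufs5 as the clearest exception.

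The other genes of the pathway were read from fixed lists, over which no gene passed the call. Of the 43 assembly factors, 40 were tested, with a median log2 difference of -0.12. At an unadjusted limma p under 0.05, 3 were lower (Coa6, Coa3 and Sdhaf2) and 1 was higher (Acad9), while 11.7% of all tested genes differed at that p. Coa6, an assembly factor of complex IV, was at 37.7 and 39.5 TPM in WT and at 21.2 and 27.2 TPM in Dido1∆E16. Among the 8 electron carrier and exchange genes (median -0.04), Cyc1 alone passed that p, and the ADP/ATP carrier Slc25a5 was at 434 to 450 TPM in every library.

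The 4 mitochondrially encoded subunit genes that could be named, mt-Nd2, mt-Co1, mt-Co2 and mt-Atp6, summed to 26098 and 28655 TPM in WT and to 20616 and 25121 TPM in Dido1∆E16. All 4 had log2 differences below 0, between -0.31 and -0.18, and none reached an unadjusted limma p under 0.05. Of the 13 citric acid cycle genes none passed that p, with a median of 0.07. The 14 tested glycolysis genes had a median of 0.23. Hk1, a hexokinase, was at 27.1 and 25.9 TPM in WT and 42.6 and 54.5 TPM in Dido1∆E16, and Pfkm, a phosphofructokinase, at 5.36 and 5.69 against 10.7 and 14.3 TPM. Both were higher at an unadjusted limma p under 0.05, while the other 12 did not reach it. Of all 11841 tested genes, 1024 were higher at that p. The regulators Nrf1, Gabpa and Yy1 had log2 differences of 0.00, 0.00 and 0.00, and none of the 11 regulators tested reached that p.

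The accessibility data asked whether the promoters of the same genes were open in LSK cells, an earlier stage than the pre-B cells. A promoter peak is a MACS2 peak between 1 kb before and 200 bp after a start that the authors' annotation assigned to the gene. Of the 84 members, 61 (72.6%) and 64 (76.2%) had one in WT, against 53 (63.1%) and 54 (64.3%) in Dido1∆E16, a difference of -10.7 percentage points. The genotypes did not overlap, with p = 0.333 by an exact permutation test (two-sided), which is the lowest value that 2 against 2 libraries can reach. Fewer promoters were called throughout in Dido1∆E16. Among the 81 tested members the shares were 75.3%, 79.0%, 65.4% and 66.7%, a difference of -11.1 points, and among all tested genes 65.2%, 76.8%, 57.5% and 55.7%, a difference of -14.4 points.

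The peak lists differed in length and did not follow the tag totals. They held 27352 and 57739 peaks in WT and 13208 and 16329 in Dido1∆E16, from 10249256, 52050898, 22533077 and 44633938 tags in the same order. With the 13208 best-scoring peaks of each list, the members' shares were 59.5% and 56.0% in WT and 63.1% and 61.9% in Dido1∆E16, so that the direction turned (4.76 points, exact permutation p = 0.333). Over all tested genes it turned likewise, from 46.6% and 47.9% to 57.5% and 50.5%. The direction for the OXPHOS promoters thus depended on which peaks were counted. The equal number kept the first Dido1∆E16 list whole and removed most peaks of both WT lists. With the better-scoring 50% of each list, the difference was -14.8 points among the 81 tested members and -19.2 points among all tested genes. With HOMER peaks the shares were 71.4% and 79.8% in WT and 70.2% and 71.4% in Dido1∆E16, a difference of -4.76 points (exact permutation p = 0.667). Among the 81 tested members it was -4.32 points with HOMER peaks, and among all tested genes -7.51 points.

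**Figure D4:**
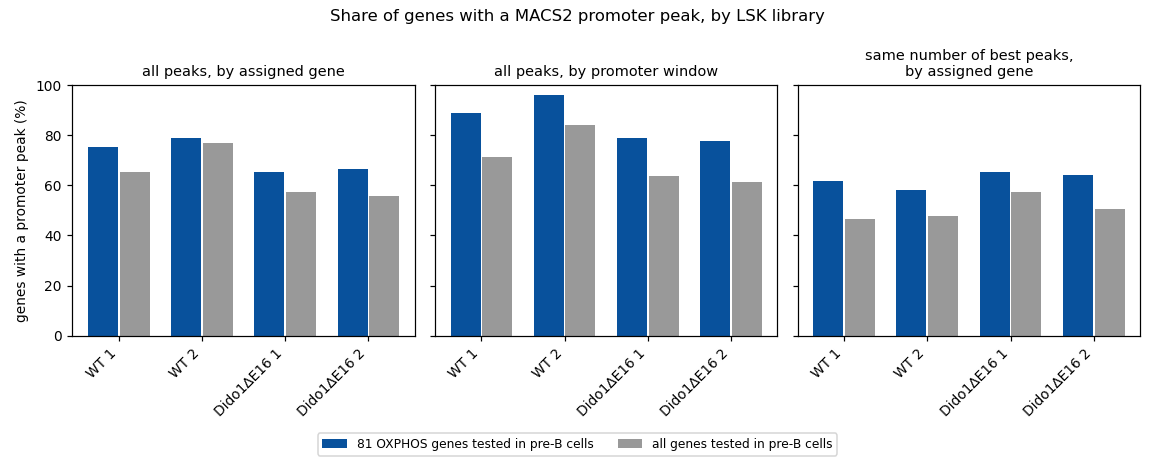
Share of genes with a MACS2 promoter peak in each LSK library (per cent, axis from 0), for the 81 OXPHOS genes tested in pre-B cells (blue) and all genes tested there (grey), under the 3 ways of counting named above each panel. The blue bar exceeds the grey bar in every library, and the lower Dido1∆E16 shares of the left and middle panels are not seen with the same number of peaks.

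Some promoters were missed only because the peak carried a neighbour's name. When any peak overlapping the window around the start of the most abundant transcript was counted, more members had a peak. These were 72 and 78 in WT and 64 and 63 in Dido1∆E16, with 58 members in all 4 libraries and 6 in none. Among the 81 tested members the shares were 88.9%, 96.3%, 79.0% and 77.8%, a difference of -14.2 points. Among all tested genes they were 71.5%, 84.1%, 63.6% and 61.3%, a difference of -15.4 points. A peak in all 4 libraries was found for 71.6% of tested members and 54.4% of all tested genes. Cox4i1, Ndufa11, Ndufa13, Sdhd, Uqcrb, Atp5h and Atp5s had no promoter peak by name and a peak in all 4 libraries by position. In all 4 libraries the peak at Sdhd was named for Timm8b, that at Ndufa11 for Vmac and that at Atp5h for Kctd2. The peak at Atp5j was named for Gabpa in the second WT library and for Atp5j in the other 3. The peak at Atp5sl carried Dmac2, a later symbol of the same gene.

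The 6 members with no peak at the window in any library were Cox6a2, Cox7b2, Cox8b, Ndufa4l2, Ndufb10 and Atp5f1. The first 4 are isoforms known from particular tissues, and all but Cox6a2 of these were at 0 in pre-B cells. Atp5f1 had a promoter peak by name in 3 of 4 libraries. Ndufb10, a membrane-arm subunit of complex I, was at 237 to 268 TPM in pre-B cells and had no promoter peak by name or position.

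**Figure D5:**
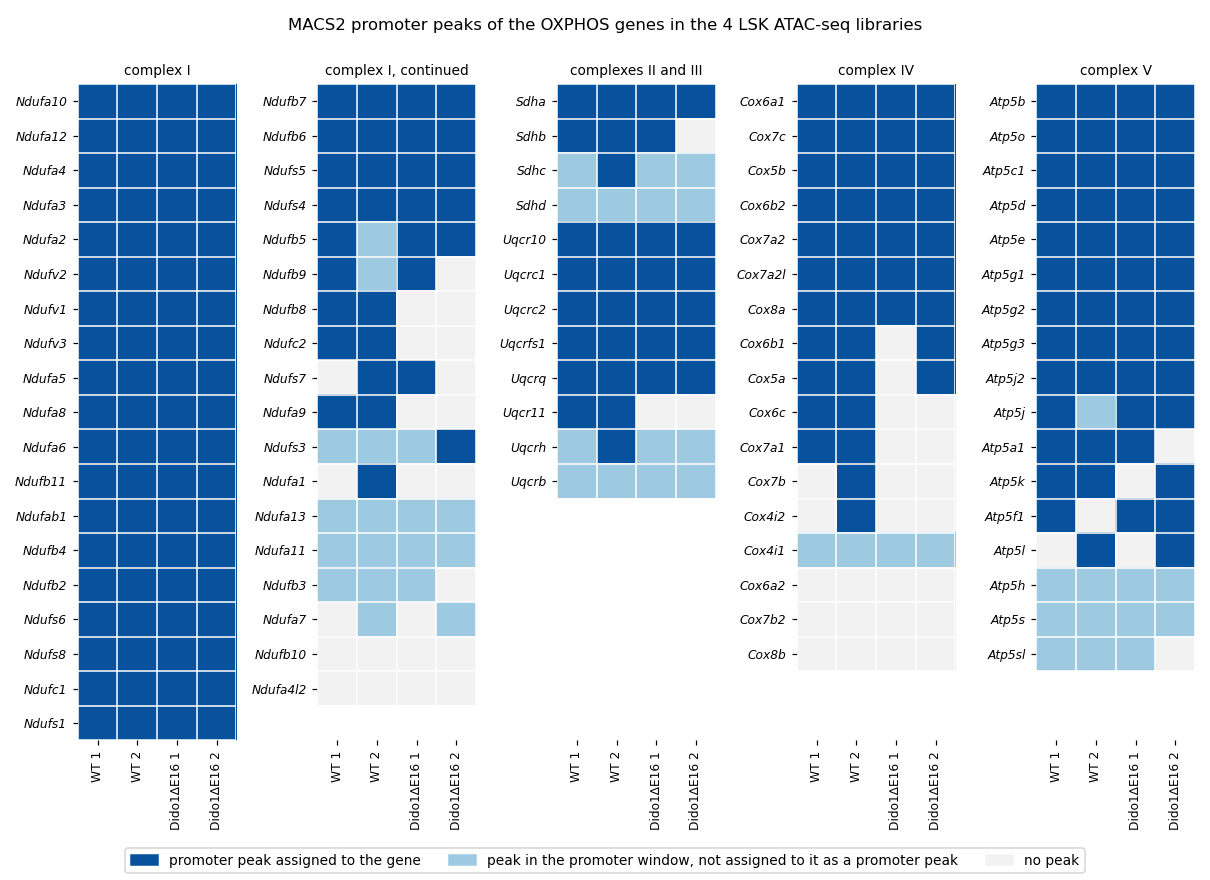
MACS2 promoter peaks of the OXPHOS genes (rows, 1 gene not shown) in the 4 LSK libraries (columns), by complex; dark blue marks a promoter peak assigned to the gene, light blue a peak in the promoter window that was not assigned to it as a promoter peak, and grey no peak. The first panel shows complex I genes with a peak in every library, and the 6 genes dark in both WT columns and grey in both Dido1∆E16 columns are Ndufb8, Ndufc2, Ndufa9, Uqcr11, Cox6c and Cox7a1.

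A promoter peak was present in both WT libraries and in neither Dido1∆E16 library for 6 of the 81 tested members (7.41%), against 5.84% of all tested genes. These were Ndufa9, Ndufb8 and Ndufc2 of complex I, Uqcr11 of complex III, and Cox6c and Cox7a1 of complex IV. By position the same count was 6, against 6.02% of all tested genes. Ndufa1, Cox7b and Cox4i2 had a peak in the second WT library alone, and so, by name, had Sdhc and Uqcrh, which had one by position in all 4. The reverse pattern was found in no member, against 0.152% of all tested genes. With the same number of best-scoring peaks in each list, no member showed the first pattern, against 0.684% of all tested genes, a share too low for this count to say anything of the members.

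The peaks of these 6 genes were among the weaker ones of the WT libraries. At Uqcr11 the peak spanned chr10:80406785-80407012 (mm10) in the first WT library, all of it within the printed window, and scored 21, at the 9.71 percentile of genes with a promoter peak in that library. In the second WT library it spanned chr10:80406533-80406956 and scored 34, at the 12.8 percentile. Over the 6 genes the percentile ran from 6.90 to 38.1 in the first WT library and from 12.8 to 46.6 in the second. In pre-B cells Uqcr11 was at 38.1 and 42.1 TPM in WT against 27.5 and 21.2 TPM, Ndufa9 was at 162 and 165 TPM in WT against 206 and 185 TPM, and Ndufc2 had overlapping values of 154 to 175 TPM.

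The members' peaks were spread widely over each list. The median percentile of their promoter scores was 60.0 and 64.2 in WT, against 64.5 and 56.3 in Dido1∆E16. With the same number of best-scoring peaks in each list it was 49.6 and 47.7 in WT, against 64.5 and 55.3 in Dido1∆E16. The percentiles thus depended on the length of the lists, and those of single genes below are from the whole lists. By the mean percentile over the 4 libraries, Cox7c, Atp5b and Ndufa5 led the members with a peak in all of them. Ndufa5 had a peak in all 4 LSK libraries, at the 94.3 and 93.3 percentile in WT and the 94.3 and 89.3 percentile in Dido1∆E16, although its transcript was listed at 0 in the WT pre-B libraries. Atp5b was at the 95.8, 98.2, 95.6 and 90.1 percentile in the same order. Cox6a1 was in the lower part, at the 11.2 and 45.6 percentile in WT and the 31.8 and 39.98 percentile in Dido1∆E16, despite its high transcript level.

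By complex, the shares by name were 76.3% in both WT libraries against 71.1% and 68.4% in complex I, a difference of -6.58 points. The differences were -25.0 points in the 4 genes of complex II, -18.8 points in complex III, -23.5 points in complex IV and 0 in complex V, beside -14.4 points over all tested genes. With the same number of best-scoring peaks they were 6.58 points in complex I, -25.0 in complex II, -12.5 in complex III, 11.8 in complex IV and 8.82 in complex V, beside 6.74 points over all tested genes. The direction thus turned in complexes I and IV and stayed negative in the small complexes II and III. No complex gave an exact permutation p under 0.333 in either count, and differences between the complexes were not tested.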

How the data were processed

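RNA-seq of sorted pre-B cells and ATAC-seq of LSK cells were analysed, with 2 libraries per genotype and assay as the sample titles give them. For RNA, the authors ran StringTie on UCSC knownGene transcripts (mm10) and deposited TPM and FPKM per transcript, with no read counts, so sequencing depth is unknown. TPM were summed per gene symbol. Symbols came from the deposited peak annotation and the gene column of a deposited table of log2 fold changes and p-values, whose values were not used. These named 99 member transcripts, and 32 more were named where at least 50% of their exonic bases lay in a GENCODE M21 gene, since several main transcripts had no symbol. A log2(TPM + 1) value was tested with limma 3.58.1 (R 4.3.3, eBayes with trend) on genes with a mean TPM of at least 1, two-sided, with Benjamini-Hochberg adjustment and a call at adjusted p under 0.05 and a log2 difference of at least 0.6. Reads of short genes and of processed pseudogene copies may be shared, and how multi-mapping reads were treated is not given in the sources used here.

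For ATAC-seq, the stated aligners are Bowtie2 and BWA 0.7.15, and the authors deposited MACS2 and HOMER peaks of each library, each with a score and its ChIPseeker annotation. Only the tag totals in a deposited table of log2 tag differences were used from the differential peaks. Shares of genes were compared over libraries with an exact permutation test. The limma fit was tested on simulated data. Replicate numbers were not used to pair the RNA libraries in the main fit. Deviations of same-numbered libraries correlated at 0.055 over tested genes and at -0.061 over those above 0 in all libraries. A low correlation over all genes does not exclude shared handling of same-numbered libraries. In both genotypes the second library held the higher sums of neutrophil and monocyte markers and of erythroid markers.

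The genes described are, in each complex, the 3 most abundant, those with the largest differences, those with an unadjusted p under 0.05, the isoform pairs, the c-subunit and Sdh genes, and members without a promoter peak in a genotype. Genes chosen after their values were seen are the 6 with zeros, the runners-up above 0 in all libraries, core complex I subunits, Ndufa9, Uqcrfs1, Cox5b, Ndufs5, Atp5l, Atp5b and the peak neighbours. One member that this rule names is not reported here by itself and enters only the counts and sums. Members and lists were chosen with earlier results of these data known. Alternatives covered the pseudocount, filters, centring, FPKM, immunoglobulin transcripts, single transcripts, the trend, the replicate block, each library left out, peak caller and peak number, and, added after seeing the data, file symbols only, treatment of zeros and peak position.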

Additional observations from a re-analysis of the deposited data

How the results depend on the processing

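Of all tested genes, 3 were called higher and 3 lower. Both counts were 3 with FPKM, without immunoglobulin transcripts, at a mean TPM of at least 5 and with centred libraries. They were 0 and 0 with a pseudocount of 0.1 or no filter on low values, 15 and 10 over single transcripts, 76 and 14 without the trend, 6 and 3 with file symbols only, 0 and 0 with libraries at 0 left out of a gene, and 3 and 1 over genes above 0 in all libraries. By unadjusted p alone they were 1024 and 360, and with the fold limit 849 and 227. Leaving out 1 library gave 0 to 231 higher and 0 lower calls, with 231 without the second Dido1∆E16 library. The single OXPHOS call, Ndufa5, was lost (0 calls) with a pseudocount of 0.1, without the filter, with zeros left out, over genes above 0 in all libraries, and without the first or second WT or the first Dido1∆E16 library, and leaving out the second Dido1∆E16 library kept 1. The causes were not tested, except that Ndufa5 cannot enter the fits that leave zeros out.

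With the replicate number as a block, 0 genes were called higher and 0 lower, and 0 OXPHOS genes were called, where 1 was without it. At an unadjusted p under 0.05, 1 OXPHOS gene was lower with the block, where 4 were without it. The correlation of same-numbered libraries over tested genes was low (0.055), which does not settle whether they were handled together. The median OXPHOS log2 difference ran from -0.10 with centred libraries to 0.04 without the second Dido1∆E16 library.

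The ratio of summed complex V levels, 1.04, was 1.02 with FPKM and 1.01 over genes above 0 in all libraries. The difference in promoter peak share turned to 4.76 points with the same number of best-scoring peaks, where the mean of the WT median score percentiles was 48.7. RNA read depth is unknown, and 2 libraries a group limit every comparison.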
